A study of Bos taurus with 30 samples.

Results

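Retinoids are the vitamin A compounds from which cells make retinoic acid, a signal that acts on gene expression in the nucleus. Retinol is carried outside cells by RBP4, the plasma retinol-binding protein, and enters cells through STRA6, the membrane receptor for RBP4. Inside the cell retinol is oxidised to retinaldehyde, which the aldehyde dehydrogenases ALDH1A1, ALDH1A2 and ALDH1A3 oxidise further to retinoic acid, while DHRS3 reduces retinaldehyde back to retinol. The cytosolic proteins CRABP1 and CRABP2 bind retinoic acid, and RARB is a nuclear receptor for it whose own gene is a classical retinoic acid target. In the uterus of ruminants, retinol-binding protein is known as a product secreted during early pregnancy.

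The transcripts of these 9 genes, of 27607 genes in the count tables, were followed in bovine endometrial cells cultured under flow in a microfluidic device. They were chosen by name as genes of retinoid transport and metabolism, with earlier results of these data known. The study had listed STRA6 and ALDH1A3 among the transcripts that differed between insulin groups in stromal cells. Each name matched 1 gene identifier and 1 protein-coding gene. Primary epithelial cells, from the upper chamber, and primary stromal cells, from the lower chamber, lay on either side of a porous membrane. The cells came from uteri of nonpregnant cows early in the luteal phase and were enriched by filtration and by plating time, so that each population can hold other cells of the endometrium. In the glucose experiment both cell types received medium with 5 mM or 50 mM glucose. In the insulin experiment both received medium with 5 mM glucose and either the vehicle, which was acetic acid in phosphate-buffered saline, or insulin at 1 or 10 ng/mL. With 3 replicates in every group, the 10 groups made up 30 libraries.

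Library totals were 13493503 to 16647701 counted reads in the glucose experiment and 8826470 to 13214728 in the insulin experiment. Levels are in CPM, the counts of a gene scaled to the total of its library. Where no read was counted, up to 3 counts remain possible by counting error, or 0.18 to 0.222 CPM in the glucose libraries and 0.227 to 0.34 CPM in the insulin libraries. CPM values can be compared between libraries for a gene but not between genes, since transcript length was not used. The 16 stromal markers of the list used here summed to 57879 to 93637 CPM in the stromal insulin libraries and to 1267 to 4755 CPM in the epithelial ones. The sums of the 18 epithelial markers lay between 8184 and 9384 CPM in the epithelial insulin libraries and between 1.49 and 348 CPM in the stromal ones, with the highest sums in replicate 2 of the vehicle group (348 CPM) and replicate 1 at 10 ng/mL (305 CPM). In the glucose experiment the populations were less distinct. Stromal replicate 3 at 50 mM stood apart, with 5526 CPM of the epithelial markers and 25055 CPM of the stromal markers, and the other stromal glucose libraries held 78.1 to 1459.5 CPM of the epithelial markers. The epithelial library of replicate 2 at 5 mM held 16381 CPM of the epithelial markers, where the other epithelial glucose libraries held 8169.9 to 9357 CPM. Of the immune list 4 of 6 genes were matched in the tables and summed to 2.77 to 16.8 CPM, and of the endothelial list 4 of 5 were matched and summed to 2.66 to 76.9 CPM, led by VWF.

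The retinol carrier gene and the retinol receptor gene were the most clearly stromal of the group. RBP4 (ENSBTAG00000000442) had 76.7, 86.0 and 121 CPM in the 3 stromal replicates at 5 mM glucose and 3.79, 3.56 and 6.99 CPM in the epithelial ones. At 50 mM it had 80.2, 91.5 and 52.0 CPM in stromal and 8.01, 9.07 and 8.92 CPM in epithelial cells. Every stromal value was above every epithelial value, and the lowest of the stromal values came from the library with the high epithelial markers. In the vehicle group RBP4 had 104, 75.9 and 97.1 CPM in stromal cells and 5.72, 2.17 and 14.4 CPM in epithelial cells. With insulin the stromal range was 83.7 to 119 CPM and the epithelial range 0.68 to 14.2 CPM. The epithelial level differed widely between replicates, from 8 reads in replicate 2 to 137 in replicate 3 at 1 ng/mL.

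STRA6 (ENSBTAG00000007348) had the same division. It had 464, 317 and 426 CPM in stromal cells at 5 mM glucose against 36.9, 17.7 and 28.4 CPM in epithelial cells, and 541, 304 and 223 CPM against 60.7, 42.6 and 41.9 CPM at 50 mM. With the insulin vehicle it had 546, 681 and 445 CPM in stromal cells and 41.8, 12.0 and 46.1 CPM in epithelial cells. At 1 and 10 ng/mL insulin the stromal libraries held 534 to 738 CPM and the epithelial ones 12.9 to 45.0 CPM. The stromal and epithelial libraries did not overlap in either experiment.

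On the log2 scale, with epithelial cells set against stromal cells so that a negative value means a higher level in stromal cells, RBP4 gave -4.56 (SE 0.342, edgeR adjusted p = 0.00543) at 5 mM and -3.22 (SE 0.253, edgeR adjusted p = 0.00224) at 50 mM glucose. In the insulin experiment the fold changes were -3.96 in the vehicle group, -4.41 at 1 ng/mL and -4.37 at 10 ng/mL (edgeR adjusted p from 0.00208 to 0.00663). For STRA6 they were -4.12 (SE 0.348, edgeR adjusted p = 0.00543) and -2.95 (SE 0.244, edgeR adjusted p = 0.0025) in the glucose experiment and -4.29, -4.46 and -4.59 in the insulin experiment (edgeR adjusted p from 0.000539 to 0.00463). A call here and below means an adjusted p under 0.05 with a log2 fold change beyond 0.1. Where a call is named only under an alternative setting, the share of all genes called in that setting is not given. Both genes were called in all 5 comparisons, with 3 of 3 replicate numbers higher in stromal cells. Without replicate 1 the 50 mM comparison had edgeR adjusted p = 0.0508 for RBP4 and 0.05 for STRA6, at fold changes of -3.03 and -2.71. In bulk RNA a lower level can come from fewer cells of a type or from less RNA per cell, and these cannot be told apart.

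The low epithelial levels of RBP4 and STRA6 are set here beside the stromal markers of the same libraries. In the vehicle group the epithelial level of STRA6 was 7.65%, 1.76% and 10.4% of the stromal level of the same replicate number, and the summed stromal markers were at 3.58%, 1.68% and 5.42%. RBP4 was at 5.53%, 2.86% and 14.8%. Replicate 2 was lowest and replicate 3 highest for both genes and for the markers. At 5 mM glucose STRA6 was at 7.94%, 5.58% and 6.67%, RBP4 at 4.94%, 4.14% and 5.76%, and the markers at 7.35%, 4.57% and 2.92%, so that RBP4 was highest in the replicate with the lowest markers. The part of stromal cells among the epithelial cells in these levels was not tested.

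**Figure D1:**
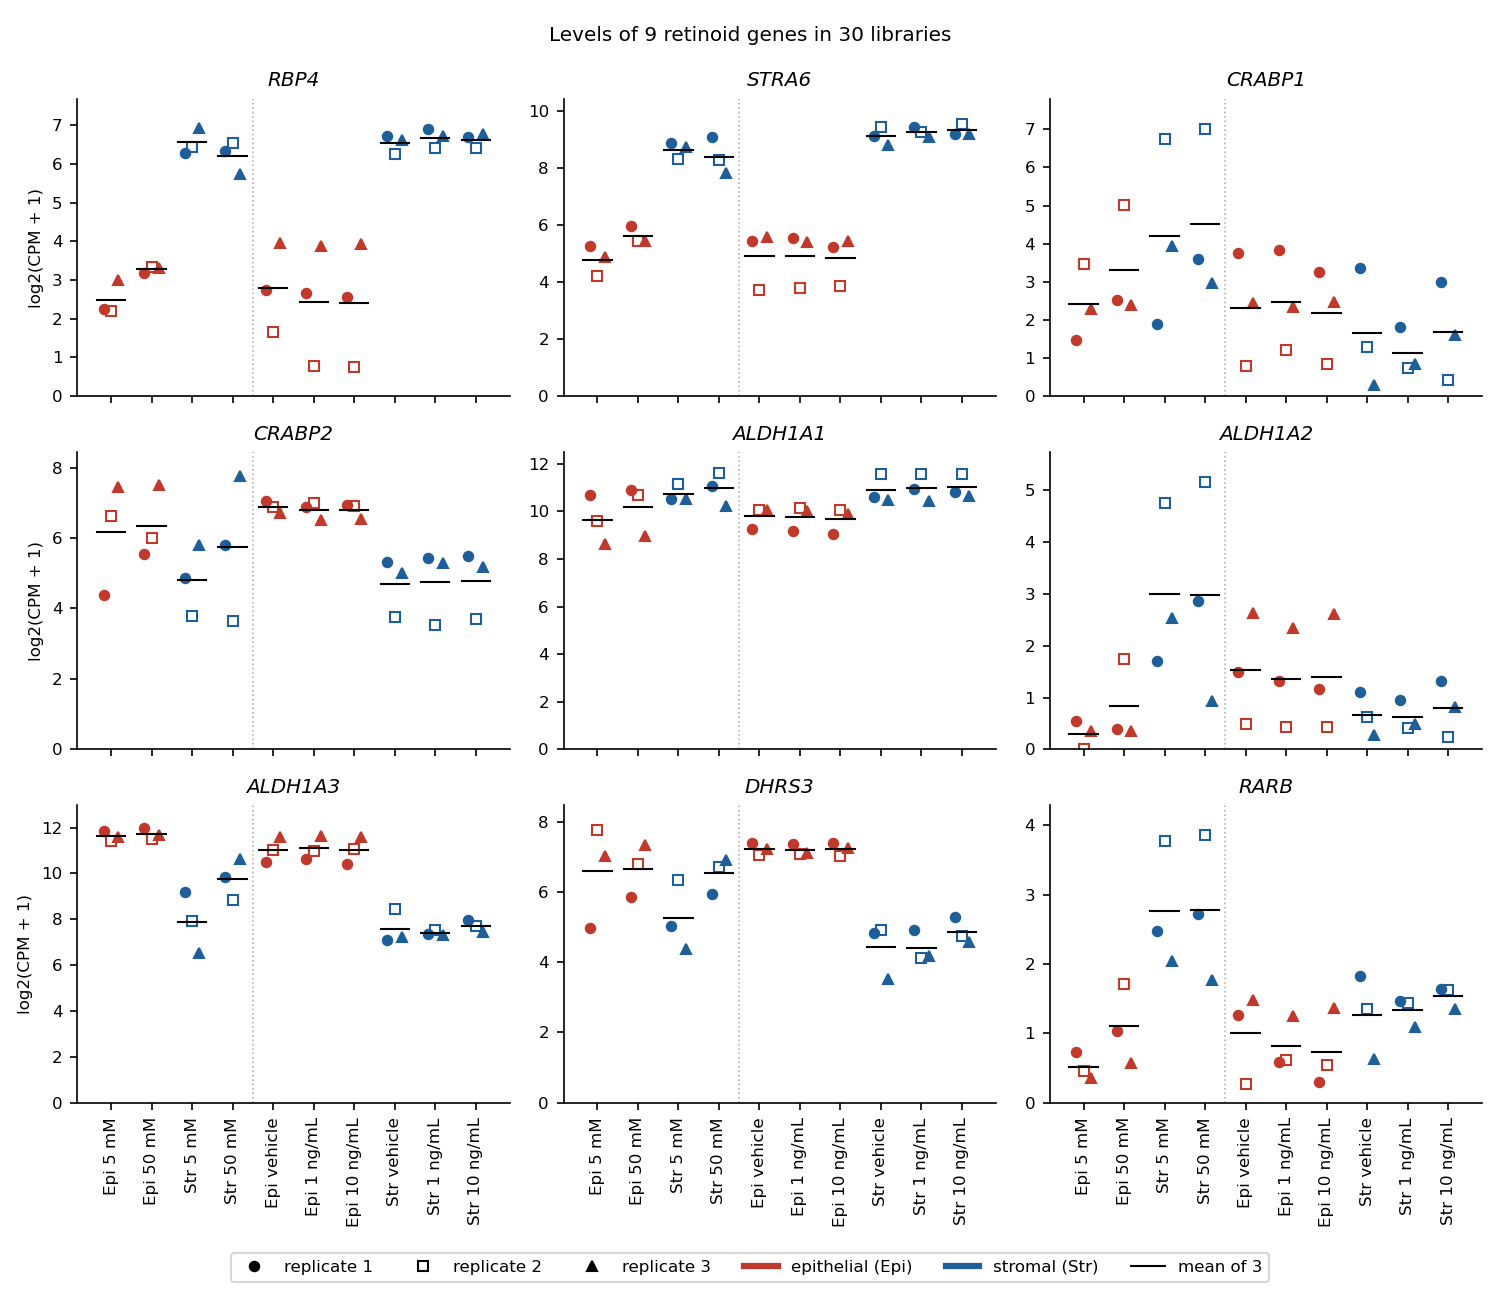
Level of each of the 9 genes as log2(CPM + 1) in the 30 libraries, by cell type and dose, with a symbol per replicate and a line at the mean of 3. RBP4 and STRA6 lie higher in every stromal group, ALDH1A3 lies higher in every epithelial group, and CRABP1 and ALDH1A2 are spread over replicates.

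ALDH1A3, which makes retinoic acid from retinaldehyde, was the 1 member called higher in epithelial cells in all 5 comparisons. ALDH1A3 (ENSBTAG00000009125) had 3679.5, 2710.2 and 3085 CPM in epithelial cells at 5 mM glucose and 587, 243 and 90.5 CPM in stromal cells. At 50 mM it had 3987, 2928 and 3238 CPM against 911, 459.5 and 1589 CPM. The highest stromal value was that of the library with the high epithelial markers, and it was still below every epithelial value of the glucose experiment. With the insulin vehicle it had 1434, 2056 and 3081 CPM in epithelial and 138, 343 and 148 CPM in stromal cells, and with insulin 1360.1 to 3212 CPM and 156 to 247 CPM. Its log2 fold change was 3.51 (SE 0.599, edgeR adjusted p = 0.0124) at 5 mM, 1.79 (SE 0.359, edgeR adjusted p = 0.031) at 50 mM, 3.37 in the vehicle group, 3.59 at 1 ng/mL and 3.21 at 10 ng/mL (edgeR adjusted p from 0.000215 to 0.00279 in the insulin groups). The call at 50 mM was lost without the replicate block (1.66, edgeR adjusted p = 0.064) and without replicate 1 (1.76, edgeR adjusted p = 0.247).

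Stromal ALDH1A3 is set here beside the epithelial markers of the same libraries. Replicate 2 at 10 ng/mL insulin held 1.49 CPM of all 18 epithelial markers together, 0.0165% of the sum in its epithelial partner, and 207 CPM of ALDH1A3, which was 9.73% of the epithelial level. At 1 ng/mL the stromal level of ALDH1A3 was 10.2%, 9.11% and 4.87% of the epithelial level, and the marker sum was 0.086%, 0.0226% and 0.097%. In the glucose experiment the marker sum was higher, at 15.7%, 10.8% and 59.9% of the epithelial sum at 50 mM, beside 22.9%, 15.7% and 49.1% for ALDH1A3. The part of epithelial cells in the stromal levels was not tested.

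CRABP2 and DHRS3 were higher in epithelial cells of the insulin experiment, while the glucose libraries overlapped. CRABP2 (ENSBTAG00000005716), the binding protein known to hand retinoic acid to its receptors, had 132, 116 and 104 CPM in epithelial cells and 38.7, 12.4 and 31.4 CPM in stromal cells of the vehicle group. Over the 9 insulin libraries of each cell type it ranged from 90.3 to 132 CPM (median 117) and from 10.5 to 44.0 CPM (median 34.9), without overlap. Stromal replicate 2 was lowest at each dose. Its log2 fold change was 2.14 (SE 0.343, edgeR adjusted p = 0.00687) in the vehicle group, 1.92 at 1 ng/mL and 1.91 at 10 ng/mL (edgeR adjusted p = 0.0184 and 0.0185). Without replicate 1 the calls at 1 and 10 ng/mL were lost (edgeR adjusted p = 0.0641 and 0.0501) at fold changes of 2.23 and 2.14.

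CRABP2 in the glucose experiment had 19.9, 98.6 and 176 CPM in epithelial cells and 28.1, 12.9 and 55.0 CPM in stromal cells at 5 mM, and 45.6, 63.6 and 180.5 CPM against 54.3, 11.6 and 214 CPM at 50 mM. Replicate 1 had the higher level in stromal cells at both doses, and the stromal library with the high epithelial markers held the highest value of all. The fold changes of 1.19 (SE 0.735, edgeR adjusted p = 0.331) and 0.42 (SE 0.613, edgeR adjusted p = 0.67) were not called. Without replicate 1 the fold change at 5 mM was 2.10 and called (edgeR adjusted p = 0.00422).

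DHRS3 (ENSBTAG00000024493) had 167, 131 and 149 CPM in epithelial and 27.4, 29.1 and 10.5 CPM in stromal cells of the vehicle group. Over all insulin doses its epithelial libraries lay between 128 and 167 CPM and its stromal ones between 10.5 and 38.3 CPM. Its epithelial values lay within a narrow band at every dose, with a mean of 149 ± 18.0 CPM (SD, n = 3) in the vehicle group. The log2 fold change was 2.76 (SE 0.325), 2.73 (SE 0.139) and 2.28 (SE 0.127) in the vehicle, 1 and 10 ng/mL groups (edgeR adjusted p from 9.94e-05 to 0.00305). With glucose it had 30.5, 217 and 128 CPM in epithelial against 31.7, 80.2 and 19.8 CPM in stromal cells at 5 mM, and 56.7, 109 and 159 CPM against 60.7, 104 and 119.7 CPM at 50 mM. These overlapped, and the fold changes of 1.16 (SE 0.581, edgeR adjusted p = 0.236) and -0.02 (SE 0.189, edgeR adjusted p = 0.945) were not called. At 5 mM, leaving out replicate 1 gave 1.87 and a call (edgeR adjusted p = 0.0111). Beside these values stood the epithelial marker sums in stromal cells of 633, 326 and 78.1 CPM at 5 mM and 1459.5, 1013 and 5526 CPM at 50 mM, and their part in the smaller differences was not tested.

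ALDH1A1, which catalyses the same step as ALDH1A3, leaned to stromal cells. ALDH1A1 (ENSBTAG00000008103) had 1565, 3060.2 and 1443 CPM in stromal and 606, 1077 and 1079 CPM in epithelial cells of the vehicle group, and over the insulin experiment 1405 to 3079.6 CPM against 526 to 1118 CPM. The groups did not overlap at any insulin dose, and the fold changes were -1.18 (SE 0.235, edgeR adjusted p = 0.0129), -1.33 (SE 0.259, edgeR adjusted p = 0.00736) and -1.47 (SE 0.217, edgeR adjusted p = 0.0058) with rising dose. Without replicate 1 the vehicle value was -1.12 and no longer called (edgeR adjusted p = 0.0807). Stromal cells of the glucose experiment had 1461, 2297 and 1453 CPM at 5 mM and 2158, 3181 and 1187 CPM at 50 mM, and epithelial cells had 1629, 780.4 and 393 CPM and 1906, 1666 and 499 CPM. The fold changes of -1.33 (SE 0.512, edgeR adjusted p = 0.134) and -0.94 (SE 0.245, edgeR adjusted p = 0.0557) were not called. At 5 mM the fit without replicate 1 gave -1.92 with a call (edgeR adjusted p = 0.0173).

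CRABP1, ALDH1A2 and RARB were called higher in stromal cells at both glucose doses and were not in the insulin groups, and CRABP1 and ALDH1A2 varied widely between replicates. CRABP1 (ENSBTAG00000012909), a retinoic acid binding protein known to be linked with its breakdown, had 2.74, 106 and 14.3 CPM in stromal cells at 5 mM glucose and 11.1, 129 and 6.83 CPM at 50 mM. Epithelial cells had 1.80, 10.0 and 3.91 CPM and 4.71, 31.2 and 4.21 CPM. Replicate 2 was the highest in each of these 4 groups. In the vehicle group stromal cells had 9.27, 1.45 and 0.217 CPM, and epithelial cells had 12.5, 0.723 and 4.41 CPM, with replicate 1 highest in both. At 1 and 10 ng/mL insulin stromal cells had 0.351 to 6.96 CPM and epithelial cells 0.793 to 13.2 CPM, again with replicate 1 highest in every group.

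The fold changes of CRABP1 had opposite signs in the glucose and insulin experiments. They were -2.23 (SE 0.579, edgeR adjusted p = 0.0423) at 5 mM and -1.52 (SE 0.293, edgeR adjusted p = 0.0283) at 50 mM, higher in stromal cells in 3 of 3 numbers. In the vehicle, 1 and 10 ng/mL groups they were 0.82 (edgeR adjusted p = 0.412), 1.95 (SE 0.354, edgeR adjusted p = 0.00573) and 0.66 (edgeR adjusted p = 0.112). The calls at 5 mM, 50 mM and 1 ng/mL were lost without the replicate block, at fold changes of -3.15, -1.99 and 2.12 (edgeR adjusted p from 0.0722 to 0.38). Leaving out replicate 2 ended the calls at 5 and 50 mM (-1.55 and -1.15, edgeR adjusted p = 0.0842 and 0.0645), and leaving out replicate 1 ended those at 50 mM and 1 ng/mL (-1.51 and 1.59, edgeR adjusted p = 0.224 and 0.0774).

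ALDH1A2 (ENSBTAG00000010119), the dehydrogenase best known from retinoic acid synthesis in the embryo, had 2.28, 26.0 and 4.82 CPM in stromal cells at 5 mM glucose and 6.26, 34.6 and 0.897 CPM at 50 mM. The epithelial libraries of the glucose experiment held 0.466, 0.0 and 0.274 CPM at 5 mM, on 7, 0 and 4 reads, and 0.306, 2.34 and 0.281 CPM at 50 mM. The vehicle group had the other order, with 1.14, 0.543 and 0.217 CPM in stromal cells and 1.80, 0.413 and 5.16 CPM in epithelial cells. With insulin, stromal cells had 0.175 to 1.51 CPM and epithelial cells 0.34 to 5.14 CPM. The fold changes were -4.86 (SE 1.28, edgeR adjusted p = 0.0448) at 5 mM and -3.79 (SE 0.505, edgeR adjusted p = 0.00973) at 50 mM glucose, and 1.52, 1.51 and 1.09 in the 3 insulin groups (edgeR adjusted p from 0.105 to 0.242), which were not called. The 50 mM call was lost without the block (-3.95, edgeR adjusted p = 0.137) and without replicate 1 (-3.35, edgeR adjusted p = 0.129), and without replicate 2 the 1 ng/mL value of 1.87 was called (edgeR adjusted p = 0.0395).

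RARB (ENSBTAG00000011518), the only retinoic acid receptor among the members, had 4.56, 12.7 and 3.11 CPM in stromal cells at 5 mM glucose and 5.57, 13.6 and 2.42 CPM at 50 mM. Epithelial cells had 0.665, 0.371 and 0.274 CPM and 1.04, 2.28 and 0.492 CPM. With the vehicle there were 2.54, 1.54 and 0.542 CPM in stromal cells and 1.41, 0.207 and 1.78 CPM in epithelial cells, which overlapped, and with insulin 1.13 to 2.12 CPM against 0.223 to 1.57 CPM. The fold changes were -3.95 (SE 0.631, edgeR adjusted p = 0.0103) and -2.60 (SE 0.265, edgeR adjusted p = 0.00429) in the glucose experiment. They were -0.55, -1.07 and -1.59 in the vehicle, 1 and 10 ng/mL groups (edgeR adjusted p from 0.102 to 0.574) and not called. The call at 50 mM was lost without the block (-2.64, edgeR adjusted p = 0.097) and without replicate 1 (-2.55, edgeR adjusted p = 0.0718), and without replicate 3 the values at 1 and 10 ng/mL were -1.81 and -2.69 and called (edgeR adjusted p = 0.0468 and 0.0367).

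**Figure D2:**
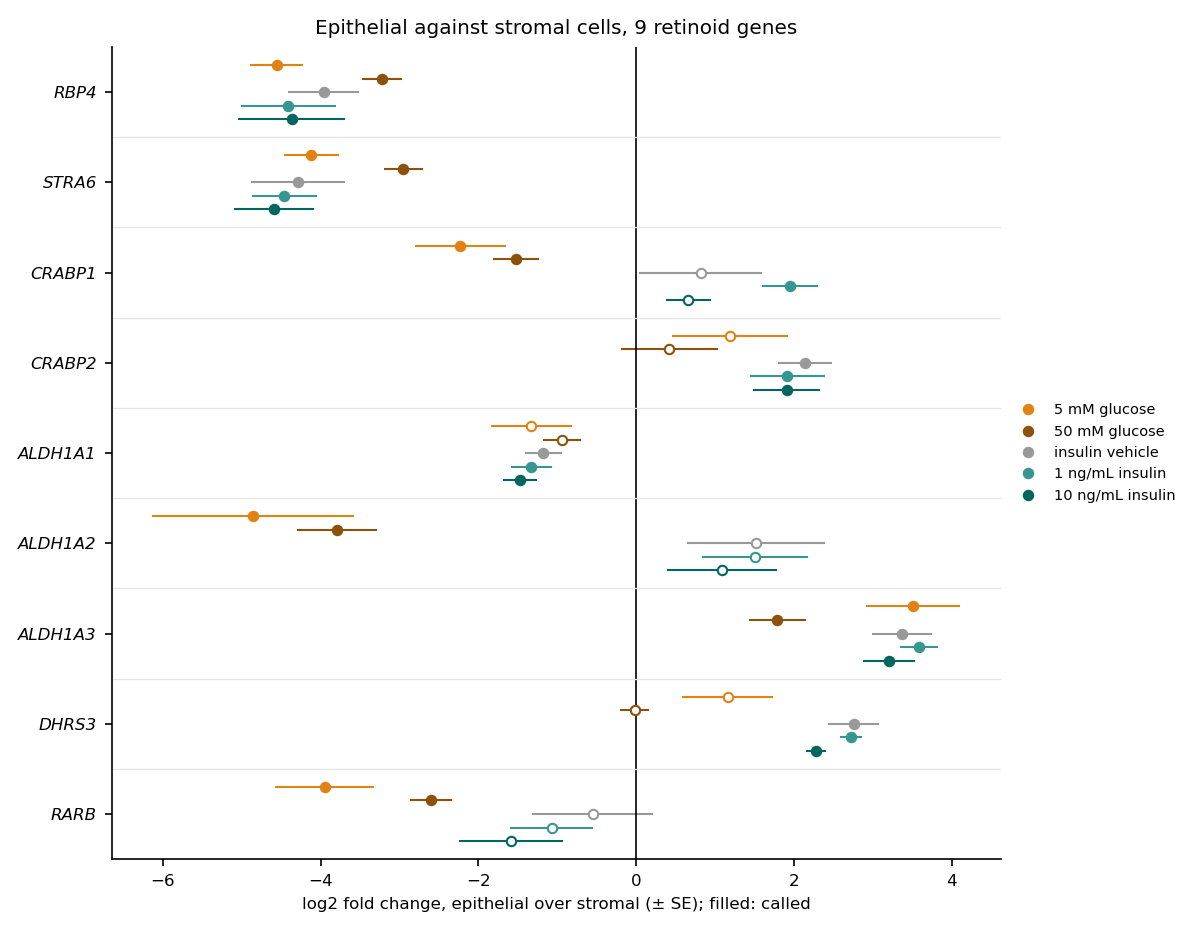
Log2 fold change of epithelial over stromal cells, with its SE, for the 9 genes in the 5 comparisons of cell types, with filled points for calls. RBP4 and STRA6 lie between -4.59 and -2.95, ALDH1A3 lies between 1.79 and 3.59, and CRABP1 and ALDH1A2 are negative in the glucose groups and positive in the insulin groups.

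Counted together, 1 of the 9 members was called higher in epithelial and 5 in stromal cells at 5 mM glucose, where 10.5% and 10.6% of all 13927 tested genes were called in these directions. At 50 mM the same counts stood beside 6.39% and 10.9% of 13892 genes. At 50 mM, 0 members were called without replicate 1, 2 without the replicate block, and 6 without replicate 3, which leaves out the stromal library with the high epithelial markers. The shares of all genes called in these settings are not given here, so these counts cannot be read as particular to the members. In the vehicle group 3 members were called higher in epithelial and 3 in stromal cells, beside 27.8% and 27.3% of 13395 genes. At 1 ng/mL the counts were 4 and 3 (29.6% and 29.3% of all genes), and at 10 ng/mL they were 3 and 3 (27.1% and 27.3%). The median log2 fold change of the members was -2.23 and -1.52 at 5 and 50 mM, and 0.82, 1.51 and 0.66 in the insulin groups with rising dose, where the medians of all tested genes were within 0.03 of 0.

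Since CRABP1, ALDH1A2 and RARB lay differently in the glucose and insulin experiments, the epithelial-stromal difference at 5 mM glucose was set against that of the vehicle group, whose medium also held 5 mM glucose. This comparison was added after the values had been seen. It gave -3.10 (SE 1.14, unadjusted p = 0.0287, edgeR adjusted p = 0.443) for CRABP1, -6.31 (SE 1.80, unadjusted p = 0.00918, edgeR adjusted p = 0.387) for ALDH1A2 and -3.35 (SE 1.11, unadjusted p = 0.0185, edgeR adjusted p = 0.415) for RARB. Of the 9 members 0 were called, beside 0% of all 14371 genes, and 3 of 9 members had an unadjusted p under 0.05, beside 10.2% of all genes. The Wald test of DESeq2 called ALDH1A2 (-6.41, adjusted p = 0.00831). A difference between them cannot be told apart from one between the cell isolates used.

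In stromal cells the levels of these 3 genes were highest where the markers of smooth muscle and pericytes, contractile cells of the vessels and of the underlying muscle layer, were highest. The 5 genes of this list (MYH11, DES, RGS5, ACTG2 and CNN1) summed to 1142, 3734 and 1794 CPM in stromal cells at 5 mM glucose and to 1497, 4019 and 749 CPM at 50 mM. Replicate 2, with the highest sums, held the highest levels of CRABP1, ALDH1A2 and RARB. At 50 mM the epithelial library of replicate 2 held 340.0 CPM of the list, where the other epithelial glucose libraries held 29.7 to 123 CPM, and it was again highest for all 3 genes. In stromal cells of the insulin experiment replicate 1 had the highest sums, 1407, 1074 and 1209 CPM with rising dose, against 500.3 to 701 CPM in the other replicates. DES, a muscle intermediate filament gene, reached 2545 CPM in a library, and 0 of the 30 libraries lacked reads on it. The highest values of ACTG2 and CNN1 were 1066.8 and 392.5 CPM. MYH11 reached only 14.4 CPM and RGS5 only 5.25 CPM, with no RGS5 reads in 4 libraries. The sum thus rests largely on DES, ACTG2 and CNN1.

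ALDH1A2 and RARB were highest in the library with the highest muscle and pericyte sum in 5 of 5 epithelial and 5 of 5 stromal groups, and CRABP1 in 5 of 5 stromal and 1 of 5 epithelial groups. RBP4 and ALDH1A3 were highest with this list in 4 of 5 epithelial groups each, and the sum of the stromal markers was highest in the same library as ALDH1A2 and RARB in 4 of 5 epithelial groups. This count was made after the values had been seen, and groups of an experiment share replicate numbers and so are not independent. Most of the epithelial values of ALDH1A2 and RARB rest on fewer than 20 reads. In the vehicle group the highest epithelial value of RARB rested on 19 reads, beside 18 and 2 in the other replicates. The part of smooth muscle cells or pericytes in these levels was not tested.

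**Figure D3:**
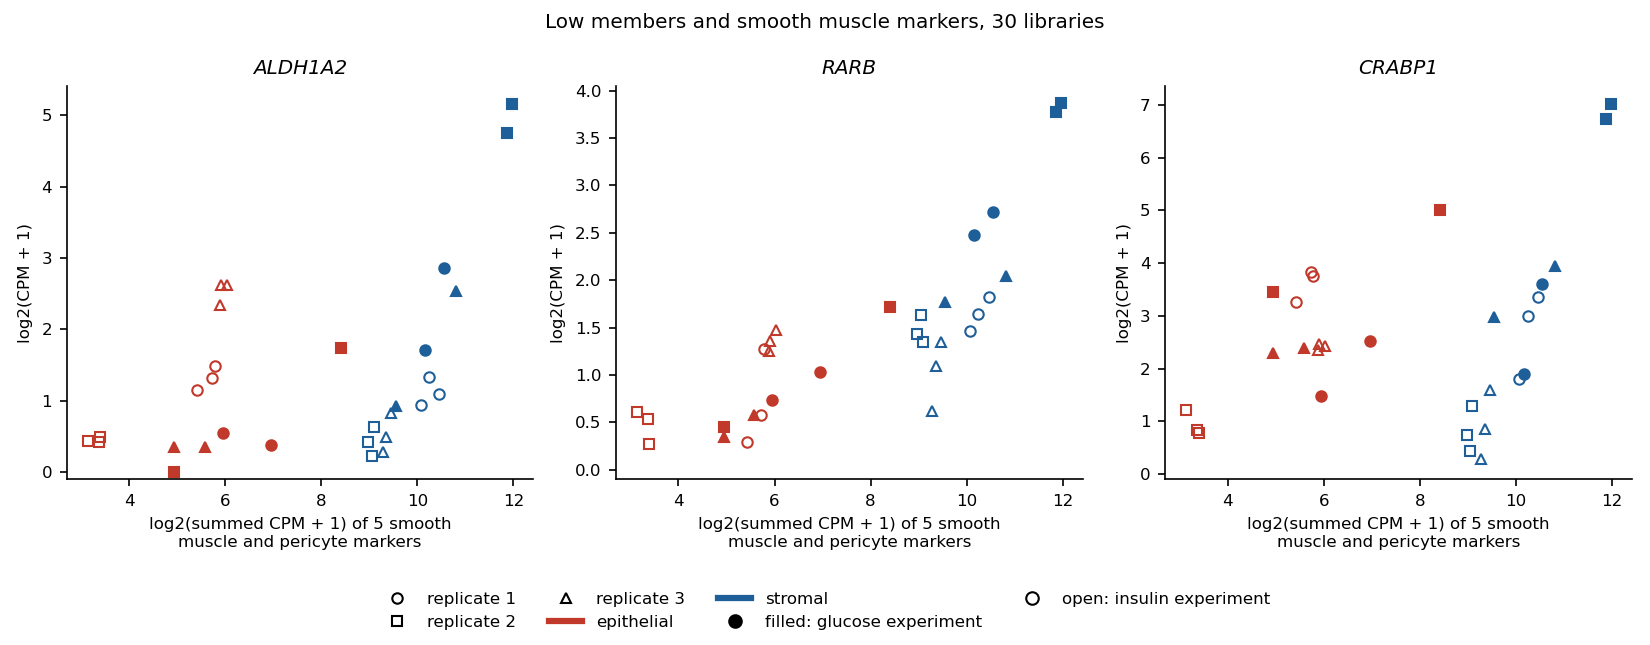
Levels of ALDH1A2, RARB and CRABP1 as log2(CPM + 1) against the summed level of 5 smooth muscle and pericyte markers as log2(summed CPM + 1), a point per library, with color for cell type and filled points for the glucose experiment. The stromal libraries of replicate 2 in the glucose experiment, with 3734 and 4019 CPM of the markers, lie at the top right in all 3 panels.

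Glucose gave no called member in either cell type. In epithelial cells the 7 tested members all had a higher fitted level at 50 mM, from 0.08 to 1.07 on the log2 scale, with 0 called (0% of 13713 genes). CRABP1 gave the largest value, 1.07 (SE 0.385, unadjusted p = 0.0344), followed by RBP4 with 0.92 (SE 0.319, unadjusted p = 0.0291) and STRA6 with 0.85 (SE 0.243, unadjusted p = 0.0139), each with edgeR adjusted p = 0.804. These 3 of 7 members stood beside 1.55% of all genes at an unadjusted p under 0.05. RBP4 and STRA6 were higher at 50 mM in 3 of 3 pairs and without overlap, from 3.56 to 6.99 CPM against 8.01 to 9.07 CPM for RBP4. Here and for the doses below, the shares of all genes with such pairs or without overlap are not given. Such patterns therefore cannot be read as particular to the members. Without replicate 2, which leaves out the epithelial library with the high epithelial markers at 5 mM, STRA6 (0.68, edgeR adjusted p = 0.00418) and DHRS3 (0.61, edgeR adjusted p = 0.0192) were called.

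The summed stromal markers moved with these epithelial values. They were at 5762, 3414 and 2115 CPM at 5 mM and at 7744, 6662 and 3052 CPM at 50 mM in epithelial cells, higher in each pair. All 16 of 16 stromal markers had a higher fitted level at 50 mM, with a median log2 fold change of 0.79, and 0 were called. The muscle and pericyte markers summed to 60.7, 29.7 and 29.7 CPM at 5 mM and to 123, 340.0 and 46.8 CPM at 50 mM in epithelial cells. Of these markers 3 of 4 tested had a higher and 1 a lower fitted level, with a median of 1.58 and 0 called. The part of either list in the higher RBP4, STRA6 and CRABP1 was not tested.

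In stromal cells 5 of 9 members were higher and 4 lower at 50 mM glucose, from -0.41 to 1.73, with 0 called (0% of 13644 genes) and 0 at an unadjusted p under 0.05 (4.87% of all genes). DESeq2 gave 0 members with an adjusted p under 0.05 in each of the 8 comparisons of doses. The largest value was that of ALDH1A3, 1.73 (SE 0.822, unadjusted p = 0.0994, edgeR adjusted p = 0.696), which was higher at 50 mM in 3 of 3 pairs. Its replicate pairs went from 587 to 911 CPM, from 243 to 459.5 CPM and from 90.5 to 1589 CPM. The epithelial marker sum of the same pairs went from 633 to 1459.5 CPM, from 326 to 1013 CPM and from 78.1 to 5526 CPM, and its part in the ALDH1A3 values was not tested. With the effect of glucose in epithelial cells subtracted from that in stromal cells, RBP4 gave -1.33 (SE 0.487, unadjusted p = 0.0274), STRA6 -1.17 (SE 0.408, unadjusted p = 0.0226) and RARB -1.43 (SE 0.578, unadjusted p = 0.0397), with edgeR adjusted p from 0.64 to 0.654. The largest value was 1.64 (SE 0.848, edgeR adjusted p = 0.722) for ALDH1A3. None of the 9 was called (0% of 14640 genes), and 3 of 9 stood beside 7.53% of all genes at an unadjusted p under 0.05.

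Insulin moved the members by little relative to their spread between replicates. In epithelial cells 0 of 9 members were called between 1 ng/mL and the vehicle (0% of 12966 genes), with fold changes from -0.49 to 0.07 and 0 at an unadjusted p under 0.05 (2.95% of all genes). RARB gave the largest value, -0.49 (SE 0.419, edgeR adjusted p = 1.0), on 2 to 19 reads per library. At 10 ng/mL all 9 members had a fitted level below that of the vehicle, from -0.62 to -0.01, and 0 were called (0.124% of 12853 genes). The stromal markers moved likewise, with 13 of 15 tested lower and a median of -0.15 beside -0.14 for the members, and 4 of 4 tested muscle and pericyte markers were lower. Their part in the members' values was not tested. ALDH1A1 was lower in 3 of 3 pairs by a small amount, from 606 to 526, from 1077 to 1054 and from 1079 to 960.1 CPM, with a log2 fold change of -0.14 (SE 0.0397, unadjusted p = 0.00114, edgeR adjusted p = 0.239). It was the only member at an unadjusted p under 0.05, beside 6.96% of all genes, and it was called without replicate 2 (-0.19, edgeR adjusted p = 0.0128). RARB had the largest value, -0.62 (SE 0.444, edgeR adjusted p = 0.872). Between 10 and 1 ng/mL 0 of 8 tested members were called (0% of 12873 genes), with fold changes from -0.39 for CRABP1 (SE 0.195, edgeR adjusted p = 0.983) to 0.15, and ALDH1A1 alone, at -0.11 (SE 0.0341, unadjusted p = 0.00751, edgeR adjusted p = 0.983), stood beside 4.44% of all genes at an unadjusted p under 0.05.

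In stromal cells 0 of 8 tested members were called at 1 ng/mL insulin against the vehicle (0.0157% of 12711 genes). RBP4 was higher in 3 of 3 pairs by 0.18 (SE 0.0562, unadjusted p = 0.00679, edgeR adjusted p = 0.849), from 104 to 119, from 75.9 to 83.7 and from 97.1 to 105 CPM. CRABP1 had the largest value, -1.21 (SE 0.414, unadjusted p = 0.0123, edgeR adjusted p = 0.895), but was lower in only 2 of 3 pairs, and these 2 of 8 members stood beside 5.16% of all genes at an unadjusted p under 0.05. STRA6 was called without replicate 2 (0.33, edgeR adjusted p = 0.0242) and CRABP1 without replicate 3 (-1.64, edgeR adjusted p = 0.00346). At 10 ng/mL 7 of 8 tested members had a fitted level above that of the vehicle, from -0.08 to 0.43, and 0 were called (0% of 12779 genes).

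STRA6, at 0.21 (SE 0.0695, unadjusted p = 0.0167, edgeR adjusted p = 0.999), was above the vehicle level at 10 ng/mL in 3 of 3 stromal pairs, from 546 to 583, from 681 to 738 and from 445 to 584 CPM. It was the only member at an unadjusted p under 0.05, beside 2.79% of all genes. The study had listed STRA6 for this comparison, so the share is not independent of how members were chosen. DHRS3 had the largest value, 0.43 (SE 0.194, edgeR adjusted p = 0.999). Without replicate 2, whose vehicle library held 348 CPM of the epithelial markers, DHRS3 (0.72, edgeR adjusted p = 0.0196) and ALDH1A3 (0.55, edgeR adjusted p = 0.00757) were called. The other stromal vehicle libraries held 9.80 and 5.96 CPM of these markers, and replicate 1 at 10 ng/mL held 305 CPM.

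Between 10 and 1 ng/mL, DHRS3 was higher in stromal cells in 3 of 3 pairs, from 28.9 to 38.3, from 16.5 to 25.6 and from 17.1 to 22.8 CPM. Its log2 fold change was 0.45 (SE 0.0910, unadjusted p = 0.000435, edgeR adjusted p = 0.265). ALDH1A3 was also higher in 3 of 3 pairs, by 0.29 (SE 0.0699, unadjusted p = 0.00166, edgeR adjusted p = 0.545), and CRABP1 in 2 of 3, by 1.05 (SE 0.364, unadjusted p = 0.015, edgeR adjusted p = 1.0). None of the 8 tested members was called (0.0313% of 12772 genes), and these 3 of 8 stood beside 3.91% of all genes at an unadjusted p under 0.05. The study had listed ALDH1A3 for this comparison, so the share is not independent of how members were chosen. Without a filter on low counts DHRS3 (0.46, edgeR adjusted p = 0.00124) and ALDH1A3 (0.29, edgeR adjusted p = 0.00165) were called, at fold changes close to those of the main fit. How many of all genes were called in that setting is not given here. DHRS3 was called without replicate 1 (0.53, edgeR adjusted p = 0.0137) and without replicate 3 (0.47, edgeR adjusted p = 0.0234), as were STRA6 without replicate 1 (0.21, edgeR adjusted p = 0.0309) and ALDH1A3 without replicate 3 (0.35, edgeR adjusted p = 0.00539). The epithelial marker sum of the pairs was 7.32 and 305 CPM, 2.12 and 1.49 CPM, and 8.31 and 31.3 CPM. In replicate 2 this sum did not go up. The part of epithelial cells in the DHRS3 and ALDH1A3 values was not tested.

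The effects of insulin in stromal and epithelial cells were also set against each other. At 1 ng/mL the difference, stromal minus epithelial, was -1.39 (SE 0.545, unadjusted p = 0.0221, edgeR adjusted p = 0.891) for CRABP1 and 0.24 (SE 0.111, unadjusted p = 0.0486, edgeR adjusted p = 0.904) for CRABP2. These 2 of 9 members stood beside 5.5% of all 14195 genes at an unadjusted p under 0.05, and 0% of all genes were called. At 10 ng/mL all 9 differences were positive, from 0.09 to 0.95, with 0 called (0% of all genes) and 1 at an unadjusted p under 0.05 (4.06%). The differences of 16 of 16 stromal markers were also at or above 0, with a median of 0.22 beside 0.30 for the members, and their part was not tested. The member at an unadjusted p under 0.05 was ALDH1A1 with 0.28 (SE 0.104, unadjusted p = 0.0157, edgeR adjusted p = 1.0), and RARB had the largest value, 0.95 (SE 0.603, edgeR adjusted p = 1.0). Without replicate 2 DHRS3 (0.72, edgeR adjusted p = 0.0199) and ALDH1A3 (0.64, edgeR adjusted p = 0.0263) were called.

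**Figure D4:**
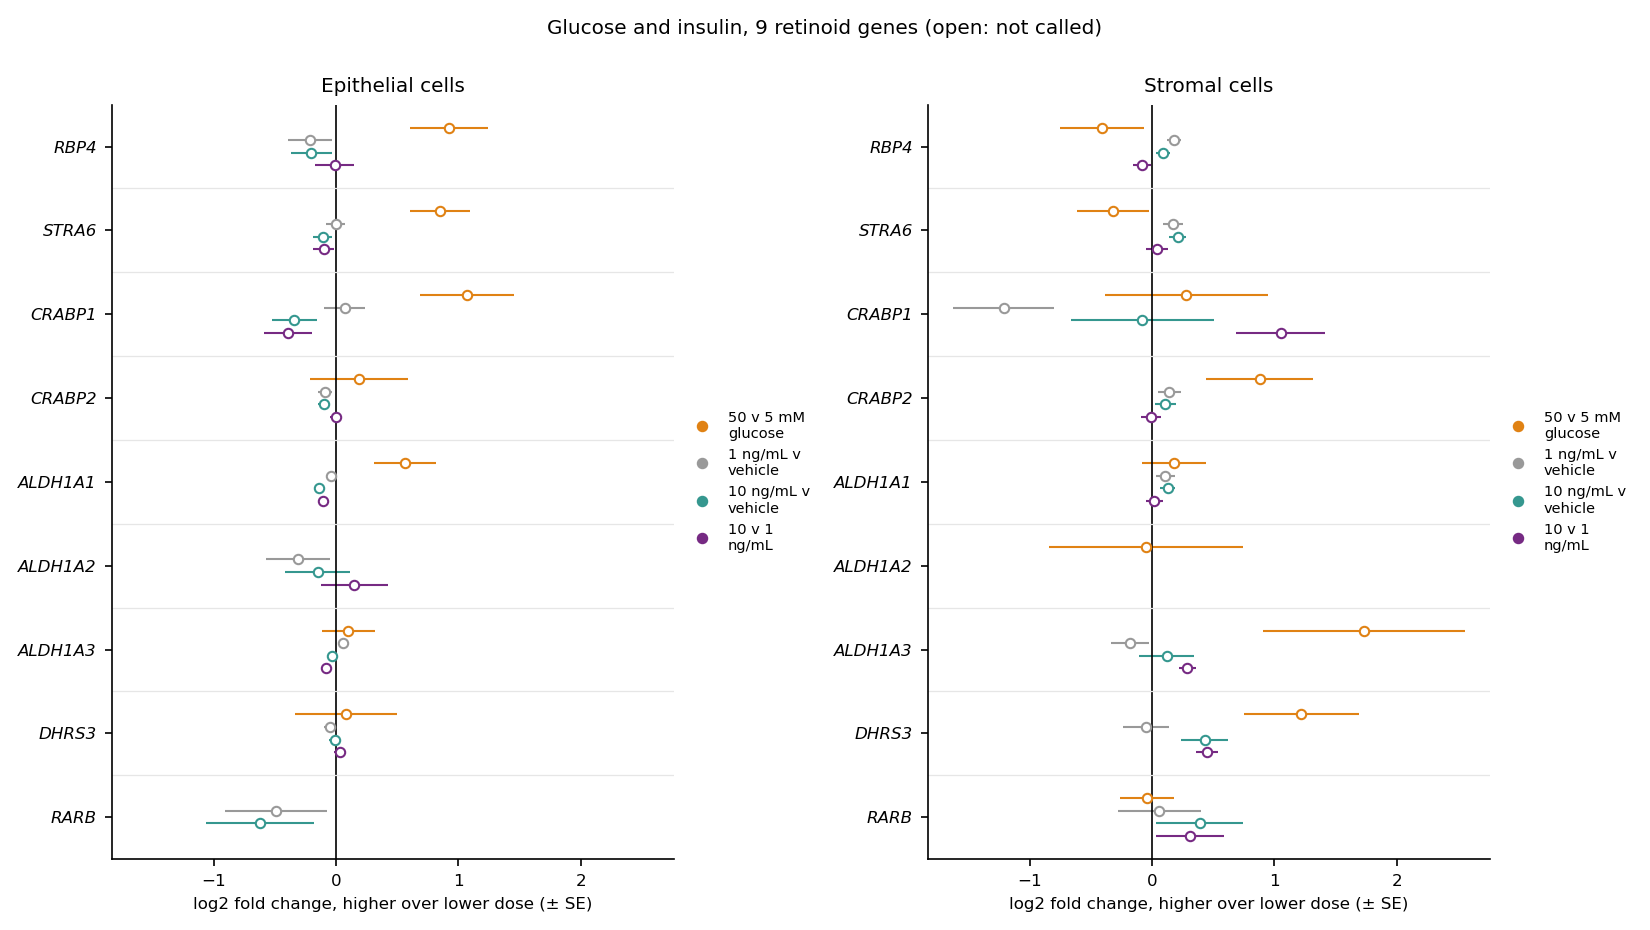
Log2 fold change of the higher over the lower dose, with its SE, for the tested members in the 4 treatment comparisons of each cell type. All points are open because 0 members were called, and the largest values are 1.73 for ALDH1A3 with glucose in stromal cells and -1.21 for CRABP1 with 1 ng/mL insulin in stromal cells.

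For most members, libraries of different replicate numbers differed more than libraries of the same number at different doses. Each of these differences also holds the noise of single libraries, so neither measures the effect of dose alone. In the insulin experiment, libraries of the same number at different doses differed less on the log2(CPM + 1) scale than libraries of different numbers at the same dose in 18 of 18 pairs of a member and a cell type. In the glucose experiment this was so in 13 of 18. For RBP4 in epithelial cells of the insulin experiment the mean absolute differences were 0.26 within a number and 1.90 between numbers, and for CRABP2 in stromal cells they were 0.15 and 1.17. The margin was small for ALDH1A3 in stromal cells of that experiment, with 0.44 and 0.45. The exceptions in the glucose experiment were RBP4, STRA6 and RARB in epithelial cells and ALDH1A3 and DHRS3 in stromal cells, with 0.79 within and 0.32 between numbers for epithelial RBP4 and 1.89 and 1.49 for stromal ALDH1A3.

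Some pairs of members also moved with each other over the libraries once the mean of each experiment and cell type had been subtracted. The pairs with the strongest correlations are given here. Others were near 0, such as STRA6 and ALDH1A3 (Pearson r = 0.02) and ALDH1A3 and RARB (0.02). These correlations are descriptions over 30 libraries that share replicate numbers, depth and cell isolates. ALDH1A2 and RARB had Pearson r = 0.87 (Spearman rho 0.85, and r = 0.81 without the 2 most distant libraries), with 0.85 in the 15 epithelial and 0.88 in the 15 stromal libraries. CRABP1 and ALDH1A2 had r = 0.76 (rho 0.76, and 0.65 without 2 libraries), with 0.52 in epithelial and 0.90 in stromal libraries. RBP4 and STRA6 had r = 0.76 (rho 0.62, and 0.65 without 2 libraries), with 0.84 in epithelial but 0.28 in stromal libraries. Their r was 0.88 in epithelial and -0.32 in stromal libraries of the insulin experiment. CRABP2 and ALDH1A1 moved in opposite directions, with r = -0.75 (rho -0.75, and -0.75 without 2 libraries), -0.78 in epithelial and -0.82 in stromal libraries. By experiment and cell type this r ranged from -0.90 in stromal to -0.41 in epithelial libraries, both of the insulin experiment. In epithelial cells at 5 mM glucose, for example, CRABP2 went from 19.9 to 98.6 and 176 CPM over replicates in which ALDH1A1 had 1629, 780.4 and 393 CPM.

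Among 10107 named genes with a mean of at least 5 CPM, the genes most like each member on the same scale differed between members. For CRABP1 they were SYNC, SYNM and FHL1 (r = 0.90, 0.87 and 0.86), which encode muscle filament and LIM domain proteins. For RBP4 they were PAM, ADGRA2 and ARHGEF25 (0.93, 0.93 and 0.92), and for STRA6 NCAM1, TGFBI and FBN1 (0.92 each), of which FBN1 is in the stromal list. ALDH1A3 was most like DUSP5, UNC13B and OCLN (0.93, 0.92 and 0.92), of which OCLN encodes a tight junction protein. The genes most like CRABP2 were EFNA1, GPX1 and VPS26C (0.88, 0.88 and 0.87), those most like ALDH1A1 were CCDC115, ALG14 and PPME1 (0.89, 0.84 and 0.84), and those most like DHRS3 were RHBDF2, AJUBA and TMEM184A (0.81, 0.80 and 0.77). ALDH1A2 and RARB were below the mean level asked for.

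The rest of the pathway was followed through lists of related genes. Of 15 genes of retinol carriage, uptake and storage 9 were matched in the tables and 4 were tested in the vehicle group. FABP5, a fatty acid carrier that can also bind retinoic acid, was higher in epithelial cells (log2 fold change 1.94, SE 0.607, edgeR adjusted p = 0.0484). The scavenger receptors CD36 (-6.37, SE 0.512, edgeR adjusted p = 0.00143) and SCARB1 (-0.76, SE 0.179, edgeR adjusted p = 0.021) were higher in stromal cells. CD36 had 81, 97 and 76 reads in stromal cells and only 1, 0 and 2 in epithelial cells. The size of its fold change is therefore uncertain. At 5 mM glucose 6 of the list were tested, of which 1 was called higher in epithelial and 2 in stromal cells, beside 10.5% and 10.6% of all genes.

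Of the enzymes that interconvert retinol and retinaldehyde or cleave carotenes, 11 of 16 were matched and 7 tested. Of these, 4 were called higher in epithelial and 1 in stromal cells of the vehicle group, beside 27.8% and 27.3% of all genes. RDH10, the main dehydrogenase that oxidises retinol for retinoic acid synthesis, had 126, 263 and 188 CPM in epithelial and 29.6, 25.3 and 22.5 CPM in stromal cells (2.76, SE 0.249, edgeR adjusted p = 0.00173). DHRS9, another retinol dehydrogenase, had 28.4, 22.6 and 14.8 CPM against 0.962, 0.724 and 0.433 CPM (4.88, SE 0.186, edgeR adjusted p = 0.000899). RDH11 (1.03, SE 0.0995, edgeR adjusted p = 0.00202) and RDH13 (1.62, SE 0.302, edgeR adjusted p = 0.0105) were also higher in epithelial cells, and BCO2, a carotene-cleaving enzyme, was higher in stromal cells (-1.63, SE 0.285, edgeR adjusted p = 0.00886). At 5 mM glucose RDH10 (2.87), RDH11 (1.44) and DHRS9 (3.77) were called higher in epithelial and BCO2 (-2.66) in stromal cells (edgeR adjusted p from 0.00543 to 0.022).

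Of the CYP26 enzymes, which break down retinoic acid, CYP26B1 was the 1 tested in the vehicle group. It had 6.04, 4.86 and 8.07 CPM in epithelial and 21.1, 12.3 and 5.63 CPM in stromal cells (-1.0, SE 0.454, edgeR adjusted p = 0.124). At 5 mM glucose CYP26B1 gave -1.07 (SE 0.387, edgeR adjusted p = 0.115) and was not called. At 50 mM it was called with -1.18 (SE 0.246, edgeR adjusted p = 0.0345), beside 10.9% of all genes called higher in stromal cells. With insulin 1 CYP26 gene was tested, at -0.85 and not called at 1 ng/mL. At 10 ng/mL it was -1.21 and called, beside 27.3% of all genes. CYP26A1 was named after its values had been seen, as a gene strongly induced by retinoic acid in many cells. It had 5, 14 and 7 reads in epithelial cells of the vehicle group and 0, 1 and 0 reads in stromal cells, and the stromal library with the high epithelial markers, at 50 mM glucose, held 19 reads where the other stromal libraries held 0 or 1.

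Of the other retinoic acid and retinoid X receptors 4 of 5 were matched and tested. RARG (-1.82, SE 0.185, edgeR adjusted p = 0.0022) and RXRA (-2.36, SE 0.383, edgeR adjusted p = 0.00705) were higher in stromal cells of the vehicle group, and RARA was slightly higher in epithelial cells, with group means of 76.5 against 53.6 CPM (0.42, SE 0.112, edgeR adjusted p = 0.0295). At 5 mM glucose RARG (-1.95) and RXRA (-1.51) were called (edgeR adjusted p = 0.0164 and 0.0466), and RARA was not (0.12, edgeR adjusted p = 0.857).

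Genes known to respond to retinoic acid were called in both directions in the vehicle group. Of 8 tested, 2 were higher in epithelial and 3 in stromal cells, beside 27.8% and 27.3% of all genes. RARRES1, named for its response to a retinoid, had 52.0, 43.1 and 50.6 CPM in stromal and 0.0784, 0.0 and 0.563 CPM in epithelial cells (-7.87, SE 0.489, edgeR adjusted p = 0.00101). RARRES2, which encodes chemerin (-4.64, SE 0.495, edgeR adjusted p = 0.00246), and HIC1 (-3.53, SE 0.366, edgeR adjusted p = 0.00231) were also higher in stromal cells. GPRC5A, which encodes a membrane protein induced by retinoic acid, was higher in epithelial cells (3.72, SE 0.211, edgeR adjusted p = 0.000936). With glucose or insulin, 0 genes of these pathway lists were called in the 8 treatment comparisons, and these counts stood beside the shares of all genes given above.

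**Figure D5:**
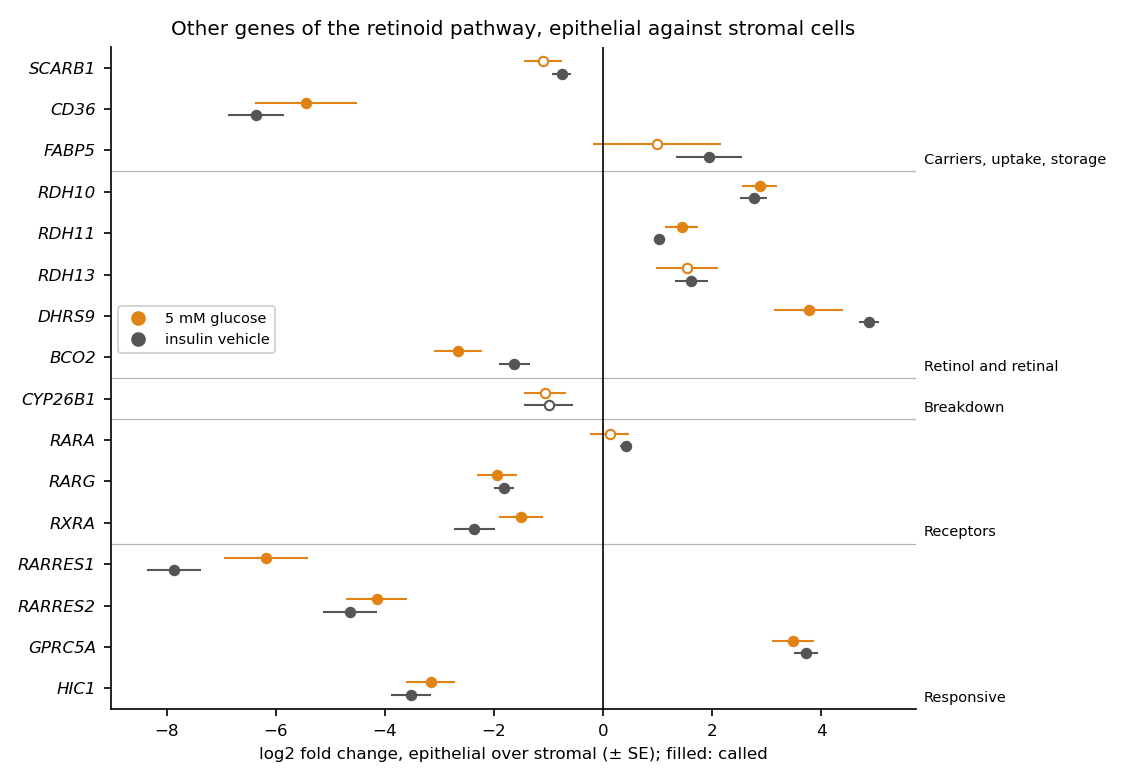
Log2 fold change of epithelial over stromal cells, with its SE, for the 16 tested pathway genes named in the text at 5 mM glucose and in the insulin vehicle group, with filled points for calls. RDH10 and DHRS9 lie to the right in both experiments, and CD36, RARG, RXRA, RARRES1, RARRES2 and HIC1 lie to the left.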

How the data were processed

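Total RNA of epithelial and stromal cells was sequenced from 12 glucose and 18 insulin libraries, prepared with a stranded Encore kit. According to the methods of the study, the authors trimmed reads with Cutadapt, filtered them with the FASTX fastq_quality_filter, aligned them with Rsubread to the Ensembl cow genome, kept uniquely mapped reads and deposited raw counts per gene from featureCounts. The strand setting of the counting is not given in the sources used here, so reads of overlapping genes could be shared. The 13 deposited comparison tables also hold the authors' means, fold changes, SEs and p-values, which were not used. Only their gene names and types were.

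Groups and replicate numbers came from the sample labels. The study describes the 3 replicates as biological, and which animals a replicate number stands for is not given in the sources used here. The counts were fitted with the quasi-likelihood test of edgeR 4.0.16 (R 4.3.3, limma 3.58.1), with TMM scaling, the filterByExpr filter on low counts, the replicate number as a block and Benjamini-Hochberg adjustment over all tested genes. The block follows the paired design in the methods. Deviations of same-numbered libraries from their group means had correlations of 0.21 to 0.85 in 24 pairs of libraries between doses and of 0.03 to 0.52 in 15 pairs between cell types. Two-sided tests were used. The SE of an edgeR fold change, in the text and figures, was worked back from the test. It is the absolute log2 fold change divided by the square root of the quasi-likelihood F statistic. No 2 replicates were near-identical, the lowest chi-square per gene being 16.3. CPM values used raw library totals, with a pseudocount of 1 for correlations and spreads. Fits were tested on simulated data. Alternatives were no block, RLE scaling, no filter, DESeq2 1.42.0 and leaving out each replicate number in both groups. The comparison between experiments and its alternatives were chosen after seeing the data.

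All members were named with their levels and cell type comparisons. For treatments the rule named the largest fold change of a comparison and those at an unadjusted p under 0.05 or called, and members called only under an alternative are named with that setting. Pathway genes were named where called in the vehicle group or largest in their list. Members and lists were chosen with earlier results of these data known. Gene names not matched in the tables were not analysed here. Some pathway genes that the rule would name are not reported here. Tables and plots used Python 3.11.15, pandas 2.3.3 and matplotlib 3.10.9.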

Additional observations from a re-analysis of the deposited data

How the results depend on the processing

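Of the 45 epithelial-stromal fold changes of members, all 45 kept their direction and their side of the threshold with RLE scaling, 44 without the filter on low counts and 43 with DESeq2, and the others (1 and 2) became called. Without the replicate block 37 did so, 6 lost their call and 2 changed sign. At 50 mM glucose 2 members were called without the block, and 0 to 6 when a replicate was left out. There CRABP2 gave -0.05 and DHRS3 0.05 without the block, and leaving out a replicate gave -0.42 to 0.99 and -0.20 to 0.15. Leaving out a replicate also gave -1.41 to 0.13 for RARB in the vehicle group and -0.02 to 1.14 for ALDH1A2 at 10 ng/mL. In epithelial cells it gave -0.78 to 0.00 for RARB at 1 ng/mL and -0.84 to 0.04 at 10 ng/mL insulin against the vehicle. The number of members called when a replicate was left out was 0 to 2 for glucose in epithelial cells, 0 to 1 for 10 ng/mL insulin in epithelial cells, 0 to 1 for 1 ng/mL and 0 to 2 for 10 ng/mL in stromal cells, 0 to 2 between 10 and 1 ng/mL in stromal cells, and 0 to 2 for the difference of the 10 ng/mL effects. Between 10 and 1 ng/mL in stromal cells 2 members were called without the filter, and DESeq2 called 1 member in the comparison of the experiments. The shares of all genes called under these alternatives are not given here, so the counts cannot be read as particular to the members. The cause of these changes was not tested. Fits without a replicate rest on 2 libraries per group. ALDH1A2 and RARB are limited by depth, with 0 to 55 and 2 to 38 reads in the epithelial libraries.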
